A study of Mus musculus with 12 samples.

Results

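S100 proteins are small calcium-binding proteins of the EF-hand superfamily, and 8 genes of the family (S100a1, S100a4, S100a6, S100a8, S100a9, S100a10, S100a11 and S100a13) were measured among 12441 genes in mouse bone marrow-derived macrophages. They were taken by gene symbol, whatever their values, and each was present in all 12 libraries. Bone marrow cells from wild-type (WT) mice or from mice homozygous for the D316Y substitution in COQ6, an enzyme of coenzyme Q biosynthesis, were cleared of red cells and grown for 6 days with 10% L929-conditioned medium, a source of macrophage colony-stimulating factor. RNA was sequenced from unstimulated cells and from cells kept 24 h with 100 ng/mL lipopolysaccharide (LPS), which activates macrophages through Toll-like receptor 4. The 4 groups of 3 libraries were unstimulated WT, unstimulated D316Y, WT with LPS and D316Y with LPS, so L929-conditioned medium was common to all of them. Whether the replicates of a group are separate animals or cultures is not stated in the labels, and the p-values therefore reflect no more than the spread among these libraries, which may be technical.

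Most S100 proteins form dimers, change shape when they bind calcium and then dock onto partner proteins such as annexins, cytoskeletal motors or p53. Some are also released from cells. S100A8 and S100A9 together form calprotectin, an abundant cytosolic complex of neutrophils and monocytes that binds zinc and manganese and, outside the cell, is a ligand of Toll-like receptor 4 and of the receptor RAGE. S100A4, S100A6, S100A10 and S100A11 are widely expressed and are best known for roles in cell motility, membrane organisation and growth.

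All 8 genes lie on mouse chromosome 3 (GENCODE M21, GRCm38), in a stretch of 185 kb that holds S100a1, S100a13, S100a4, S100a6, S100a8 and S100a9 (90511034 to 90695721) and a stretch of 44.2 kb that holds S100a11 and S100a10 (93520488 to 93564643). Promoter windows of 300 bases, from 250 before to 50 after the annotated start, were matched in RefSeq (GRCm38.p6) for 7 of the 8, not for S100a10. The windows below belong to the members whose LPS responses are set against each other further on: S100a8 and S100a9, which encode the 2 chains of calprotectin, S100a4 and S100a11, which both fell with LPS in D316Y cells, and S100a13, which shares its promoter region with S100a1. They are written 5′ to 3′ on the strand of the gene, and capitals mark motif matches.
S100a8 (chr3:90668821-90669120, plus strand): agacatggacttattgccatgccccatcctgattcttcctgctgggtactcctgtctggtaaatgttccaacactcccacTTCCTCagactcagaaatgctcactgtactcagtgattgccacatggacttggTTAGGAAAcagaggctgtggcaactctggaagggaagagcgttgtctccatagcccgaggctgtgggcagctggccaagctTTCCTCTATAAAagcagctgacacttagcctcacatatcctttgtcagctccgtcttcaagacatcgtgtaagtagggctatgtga
S100a9 (chr3:90695672-90695971, minus strand): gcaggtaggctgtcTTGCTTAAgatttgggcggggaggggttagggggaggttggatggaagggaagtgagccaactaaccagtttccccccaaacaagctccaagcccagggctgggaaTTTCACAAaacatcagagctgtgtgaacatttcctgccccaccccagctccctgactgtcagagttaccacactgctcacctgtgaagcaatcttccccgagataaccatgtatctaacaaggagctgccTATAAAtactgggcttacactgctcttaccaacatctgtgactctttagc
S100a4 (chr3:90603520-90603819, plus strand): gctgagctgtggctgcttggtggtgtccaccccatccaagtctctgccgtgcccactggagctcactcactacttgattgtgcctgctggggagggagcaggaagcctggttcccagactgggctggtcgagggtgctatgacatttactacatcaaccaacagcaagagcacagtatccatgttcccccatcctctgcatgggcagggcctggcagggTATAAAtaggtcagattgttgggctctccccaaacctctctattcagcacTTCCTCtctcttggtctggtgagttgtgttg
S100a11 (chr3:93520246-93520545, plus strand): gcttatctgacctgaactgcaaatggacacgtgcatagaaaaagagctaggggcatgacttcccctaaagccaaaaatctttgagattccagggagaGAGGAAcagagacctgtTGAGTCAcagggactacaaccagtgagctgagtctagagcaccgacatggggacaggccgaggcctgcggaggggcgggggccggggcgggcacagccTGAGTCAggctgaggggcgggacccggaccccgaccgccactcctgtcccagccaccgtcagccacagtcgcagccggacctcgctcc
S100a13 (chr3:90514185-90514484, plus strand): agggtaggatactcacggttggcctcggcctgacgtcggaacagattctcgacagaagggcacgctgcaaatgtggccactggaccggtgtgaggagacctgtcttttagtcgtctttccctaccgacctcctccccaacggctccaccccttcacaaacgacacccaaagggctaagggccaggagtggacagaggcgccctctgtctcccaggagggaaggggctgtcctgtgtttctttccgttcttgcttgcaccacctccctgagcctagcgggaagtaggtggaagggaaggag

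The 6 motifs were searched on both strands, and the matches in these windows do not overlap each other. A C/EBP match (TTNNGNAA) stood in the S100a8 window at -117 and in the S100a9 window at -236 and -130, counting the annotated start as 1. Of 32851 mouse promoter windows of this length, 40.7% held such a match. PU.1 matches (GAGGAA, in 28.3% of windows) stood at -170 and -36 of S100a8, 20 of S100a4 and -153 of S100a11. TATAAA (in 13.6% of windows) stood at -30 of S100a8, at -31 of S100a4 and at the annotated start itself in S100a9. AP-1 matches (TGANTCA, in 7.81% of windows) stood at -136 and -38 of S100a11. The windows of S100a1, S100a6 and S100a13 held none of these and none of the STAT (TTCNNNGAA, 8.30% of windows) or NF-kB (GGG, any 2 bases, then TTTCC; 1.63%) letters, and the last 2 motifs were in none of the 7 windows. S100a1 and S100a13 are read in opposite directions from start sites 105 bases apart, and their windows share 204 bases (chr3:90514281-90514484). A match describes the letters of a window and not a bound site.

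Per library, 32.8 to 47.2 M reads were recovered from the deposited values. The macrophage label held: 8 of 8 macrophage markers were measured, with a summed level between 31931 and 69206 CPM per library. Most of that sum came from Lyz2, and the mean over the 8 markers was between 8.90 and 9.83 log2 CPM per library. Il1b, an LPS-induced cytokine gene, had a mean of 1.84 and 1.46 log2 CPM without LPS against 10.0 and 10.4 with it. Coq6 carries a point mutation, so its level (means from 3.49 to 3.58 log2 CPM) does not check the genotype labels. Replicate 1 without LPS differed from replicates 2 and 3 in both genotypes. Mitochondrially encoded genes took 0.449% (WT) and 0.949% (D316Y) of their reads against 1.97% to 2.97% in the other unstimulated libraries. Ribosomal protein genes took 3.25% and 4.77% against 6.73% to 8.56%. In each genotype replicate 1 was the lowest unstimulated library for 7 of the 8 S100 genes, the exceptions being S100a9 in WT and S100a11 in D316Y, whereas it was the lowest for 34.5% (WT) and 37.4% (D316Y) of 10048 genes. LPS responses and genotype differences that passed or moved with these libraries are given with and without them. Among the LPS libraries, WT replicate 2 was the highest of its group for 7 of the 8 S100 genes (35.9% of 10048 genes). D316Y replicate 2 with LPS was the lowest of its group for 6 of the 8 (28.6%).

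The S100 genes fell into a highly expressed set of 6 and the calprotectin pair, which was far lower. On the length-corrected scale, log2 of the depth-scaled read count (CPM) per kilobase of exon (log2 CPM per kb), S100a4 led unstimulated WT cells with 8.39 ± 0.88 (SD, n = 3). S100a11 followed with 8.35 ± 0.24, S100a1 with 8.12 ± 0.32, S100a6 with 8.03 ± 0.41, S100a10 with 7.27 ± 0.84 and S100a13 with 6.56 ± 0.23. S100a8 stood at 2.99 ± 1.10 and S100a9 at 1.43 ± 0.97 log2 CPM per kb. In this ranking of WT cells the ranges of neighbouring genes overlapped everywhere except between S100a13 and S100a8, which were 3.56 apart. Unstimulated D316Y cells had the same order, from 8.94 ± 0.59 for S100a4 to 2.54 ± 0.95 log2 CPM per kb for S100a9. Against all 12441 genes on this scale, S100a4 was above 98.9% in unstimulated WT cells, S100a8 above 71.8% and S100a9 above 49.5%.

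With LPS the order changed. S100a1 led with 8.32 ± 0.27 log2 CPM per kb in WT and 8.26 ± 0.08 in D316Y cells, followed by S100a11 with 8.08 ± 0.17 and 7.96 ± 0.09. S100a4 dropped from the first place to the sixth in both genotypes, at 6.79 ± 0.41 and 6.85 ± 0.25 log2 CPM per kb. S100a8 stayed seventh but reached 5.49 ± 0.46 and 5.70 ± 0.12, above 90.7% and 91.9% of all genes, while S100a9 stayed last at 2.20 ± 0.55 and 2.26 ± 1.07. S100a6 carries long annotated exons (1367 bases in all), which lowers its level per kilobase, and S100a4 shares 302 exon bases (51.7% of its own) with the same-strand gene model Gm42674, so how its reads were split is uncertain.

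**Figure D1:**
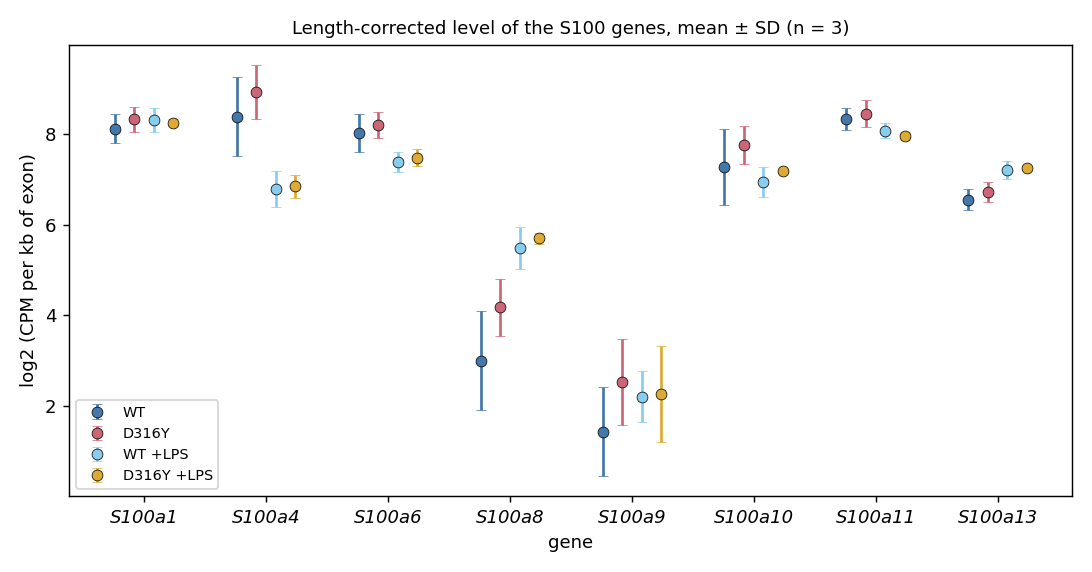
Length-corrected level of each S100 gene (y axis, log2 CPM per kb of exon) in the 4 groups; points are means of 3 libraries and bars ± 1 SD. S100a8 and S100a9 lie below the other 6 genes in all 4 groups, and S100a4 is first in both unstimulated groups and sixth in both LPS groups.

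Together the 8 genes took 0.0956% (95% Wilson interval 0.0947% to 0.0965%), 0.184% (0.183% to 0.186%) and 0.183% (0.181% to 0.184%) of the table's reads in unstimulated WT replicates 1, 2 and 3, and 0.144% (0.143% to 0.145%), 0.216% (0.215% to 0.218%) and 0.212% (0.211% to 0.213%) in unstimulated D316Y. With LPS the share was between 0.0745% and 0.0941% in WT and between 0.0809% and 0.0941% in D316Y, below every unstimulated library. Over the same libraries, mitochondrially encoded genes took 0.658% to 1.10% of the reads with LPS, against 0.449% to 2.97% without it, and ribosomal protein genes took 3.51% to 4.81% against 3.25% to 8.56%. Their part in the lower S100 share was not tested. The intervals cover counting error only. S100a6 drew the most reads of the family in 10 libraries and S100a1 in WT replicates 2 and 3 with LPS.

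The LPS comparisons asked how 24 h of LPS changed these genes in each genotype. In WT cells 4 of the 8 passed (limma, adjusted p under 0.05): S100a8 and S100a13 rose, and S100a4 and S100a6 fell. In all, 37.1% of 11663 genes passed in that comparison, 18.1% higher and 19% lower. In D316Y cells S100a8 and S100a13 rose and S100a4, S100a6 and S100a11 fell, which makes 5 of 8, against 38.4% of 11795 genes, 19.4% higher and 19% lower. The groups did not overlap for 2 members upward and 1 downward in WT (22.9% and 23.9% of all genes) and for 2 upward and 4 downward in D316Y (26.7% and 26.1%). The median log2 difference of the 8 was -0.03 in WT (all genes tested, -0.01) and -0.38 in D316Y (all genes, -0.03). With 8 genes these counts are a description, and nothing particular to the family is read from them. The 2 responses are estimated from 1 fit of all 12 libraries. They depend on the library sizes by which the deposited CPM were scaled. Without LPS these sizes were 41.2 to 55.8 M, against 32.8 to 46.9 M recovered reads. With LPS they were 32.6 to 43.1 M, against 35.3 to 47.2 M. The effect of this scaling on the LPS differences was not tested.

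**Figure D2:**
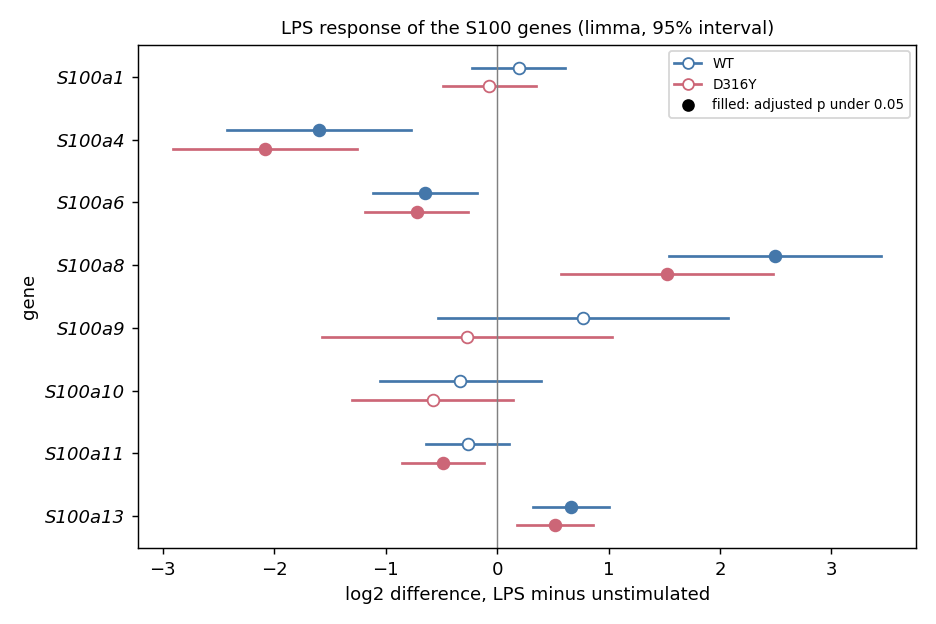
LPS response of each S100 gene (x axis, log2 difference, LPS minus unstimulated) in WT and D316Y cells; points are limma estimates, lines 95% intervals, and filled points have an adjusted p under 0.05. S100a8 and S100a13 lie right of 0 and S100a4 and S100a6 left of 0 in both genotypes.

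S100a8 encodes the calprotectin chain also known as MRP8. In unstimulated WT cells it stood at 1.27, 3.42 and 2.72 log2 CPM in replicates 1, 2 and 3 (134, 507 and 270 reads), and with LPS at 4.59, 5.48 and 4.82 (1035, 1697 and 1167 reads). The D316Y values were 2.95, 3.83 and 4.16 without LPS (404, 784 and 875 reads) and 5.06, 5.17 and 5.29 with LPS (1210, 1358 and 1276 reads). Every LPS library was above every unstimulated library of its genotype, and the lowest of the 12 values was unstimulated WT replicate 1. S100a8 rose 5.64-fold in WT (log2 difference 2.496, SE 0.44, limma adjusted p 0.000555) and 2.87-fold in D316Y (1.52, SE 0.44, adjusted p 0.0144). Without the unstimulated replicate 1 libraries the rise was 3.72-fold in WT (1.90, adjusted p 2.99e-05) and 2.26-fold in D316Y (1.18, adjusted p 0.00149); without that of D316Y alone the D316Y call was lost (1.18, adjusted p 0.0634).

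S100a9 encodes the other chain, MRP14, and was read far less often, with 34 to 304 reads per library. It stood at 0.14, 1.60 and -0.26 log2 CPM in unstimulated WT replicates 1, 2 and 3 and at 0.79, 1.88 and 1.14 with LPS. In D316Y cells it stood at 0.78, 1.37 and 2.64 without LPS and at 1.25, 0.30 and 2.43 with it. The values of all 4 groups overlapped. The log2 difference with LPS was 0.77 in WT (SE 0.60, 95% interval -0.53 to 2.08, adjusted p 0.347) and -0.27 in D316Y (SE 0.60, -1.57 to 1.03, adjusted p 0.756), so neither passed. The WT interval reaches 2.08, against an estimate of 2.496 for S100a8.

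The reads of the 2 calprotectin chains therefore stood in different ratios with and without LPS. There were 2.20, 3.55 and 7.94 S100a8 reads per S100a9 read in unstimulated WT replicates 1, 2 and 3 and 4.54, 5.48 and 2.88 in unstimulated D316Y. With LPS there were 13.99, 12.2 and 12.97 in WT and 14.1, 29.5 and 7.29 in D316Y. The WT ranges did not overlap, and neither did the D316Y ranges, although D316Y replicate 3 with LPS lay below the highest unstimulated WT value. The ratio was chosen after its values were seen and was not tested.

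S100a4, also called metastasin or FSP1, binds non-muscle myosin IIA and is known for its part in cell motility. It stood at 6.60, 8.16 and 8.09 log2 CPM in unstimulated WT replicates 1, 2 and 3 and at 5.94, 6.45 and 5.66 with LPS. Its D316Y values were 7.48, 8.51 and 8.49 without LPS and 6.13, 5.81 and 6.30 with LPS. No LPS library reached any unstimulated library of its genotype, and unstimulated replicate 1 was the nearest in both. S100a4 fell 3.03-fold in WT (log2 difference -1.60, SE 0.38, adjusted p 0.00479) and 4.23-fold in D316Y (-2.08, SE 0.38, adjusted p 0.000701). It passed in both genotypes in all 13 alternatives run, and without the unstimulated replicate 1 libraries the differences were -2.11 and -2.42.

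S100a6, or calcyclin, is a growth-associated member that binds the ubiquitin ligase adaptor CACYBP. It stood at 7.999, 8.68 and 8.75 log2 CPM in unstimulated WT replicates 1, 2 and 3 and at 7.77, 8.08 and 7.65 with LPS. In D316Y cells it stood at 8.33, 8.78 and 8.86 without LPS and at 8.05, 7.72 and 8.04 with it. The D316Y groups did not overlap, while WT replicate 2 with LPS was above unstimulated WT replicate 1. S100a6 fell 1.56-fold in WT (log2 difference -0.64, SE 0.22, adjusted p 0.0320) and 1.65-fold in D316Y (-0.72, SE 0.22, adjusted p 0.0171). The WT call was lost in 5 of 13 alternatives, with adjusted p up to 0.127: with median centring and without WT unstimulated replicate 2 or 3 or WT LPS replicate 1 or 3; the D316Y call was lost without D316Y unstimulated replicate 2 or 3 or LPS replicate 2, with adjusted p up to 0.0803. Without both unstimulated replicate 1 libraries the differences were -0.88 in WT and -0.89 in D316Y (adjusted p 0.000233 and 0.000217).

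S100a10, or p11, forms a tetramer with annexin A2 at the plasma membrane that binds plasminogen, and S100a11, or calgizzarin, binds annexin A1. S100a10 stood at 6.57, 8.06 and 8.01 log2 CPM in unstimulated WT replicates 1, 2 and 3 and at 7.02, 7.61 and 7.03 with LPS. D316Y cells had 7.56, 8.32 and 8.22 without LPS and 7.48, 7.42 and 7.47 with it. Unstimulated replicate 1 was below every LPS library in WT and just above every LPS library in D316Y. Over all libraries the log2 difference was -0.33 in WT (SE 0.34, adjusted p 0.479) and -0.58 in D316Y (SE 0.34, adjusted p 0.197), and neither passed. Without the unstimulated replicate 1 libraries it was -0.82 in both genotypes (1.76-fold lower in each, adjusted p 0.000835 in WT and 0.000807 in D316Y), and both passed. With only the library of the genotype itself left out, the adjusted p was 0.0114 in WT and 0.0912 in D316Y.

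S100a11 showed that library pattern less. It stood at 7.19, 7.29 and 7.65 log2 CPM in unstimulated WT replicates 1, 2 and 3 and at 7.26, 7.15 and 6.93 with LPS. In D316Y cells it stood at 7.80, 7.42 and 7.21 without LPS, where replicate 1 was the highest, and at 7.06, 7.03 and 6.89 with LPS. The WT groups overlapped and the D316Y groups did not. The log2 difference was -0.26 in WT (SE 0.17, adjusted p 0.259) and -0.49 in D316Y (SE 0.17, adjusted p 0.0395). The D316Y call held in 6 of 13 alternatives, and without the unstimulated replicate 1 libraries it was lost (-0.32, adjusted p 0.0762).

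S100a13 takes part in the export of proteins that lack a signal peptide, such as FGF1 and interleukin-1 alpha, and S100a1 is best known as a regulator of calcium handling in heart and skeletal muscle. S100a13 stood at 5.81, 6.23 and 6.19 log2 CPM in unstimulated WT replicates 1, 2 and 3 and at 6.61, 6.97 and 6.63 with LPS. In D316Y cells it stood at 6.00, 6.35 and 6.40 without LPS and at 6.78, 6.72 and 6.82 with it. All LPS libraries were above all unstimulated ones on this scale. S100a13 rose 1.58-fold in WT (log2 difference 0.66, SE 0.16, adjusted p 0.00474) and 1.44-fold in D316Y (0.52, SE 0.16, adjusted p 0.0183). Its reads were 3121, 3558 and 3008 without LPS and 4208, 4751 and 4091 with it in WT. In D316Y they were 3336, 4520 and 4119 without LPS and 3995, 3971 and 3679 with it. As a share of all recovered reads, the groups with and without LPS overlapped in both genotypes. That share was not tested. The WT call held in all 13 alternatives, and the D316Y call was lost without D316Y unstimulated replicate 1 or LPS replicate 1 or 3, with adjusted p up to 0.0679. Without both unstimulated replicate 1 libraries the differences were 0.53 in WT and 0.40 in D316Y (adjusted p 0.00342 and 0.0186).

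S100a1, the divergent neighbour whose promoter window shares 204 bases with that of S100a13, did not pass with LPS. It stood at 7.23, 7.82 and 7.74 log2 CPM in unstimulated WT replicates 1, 2 and 3 and at 7.57, 8.09 and 7.71 with LPS. In D316Y cells it stood at 7.49, 7.95 and 7.97 without LPS and at 7.72, 7.65 and 7.82 with it. The groups overlapped in both genotypes. The log2 difference was 0.19 in WT (SE 0.19, 95% interval -0.22 to 0.61, adjusted p 0.466) and -0.07 in D316Y (SE 0.19, -0.49 to 0.35, adjusted p 0.802). The difference between the responses of the 2 genes was not tested.

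**Figure D3:**
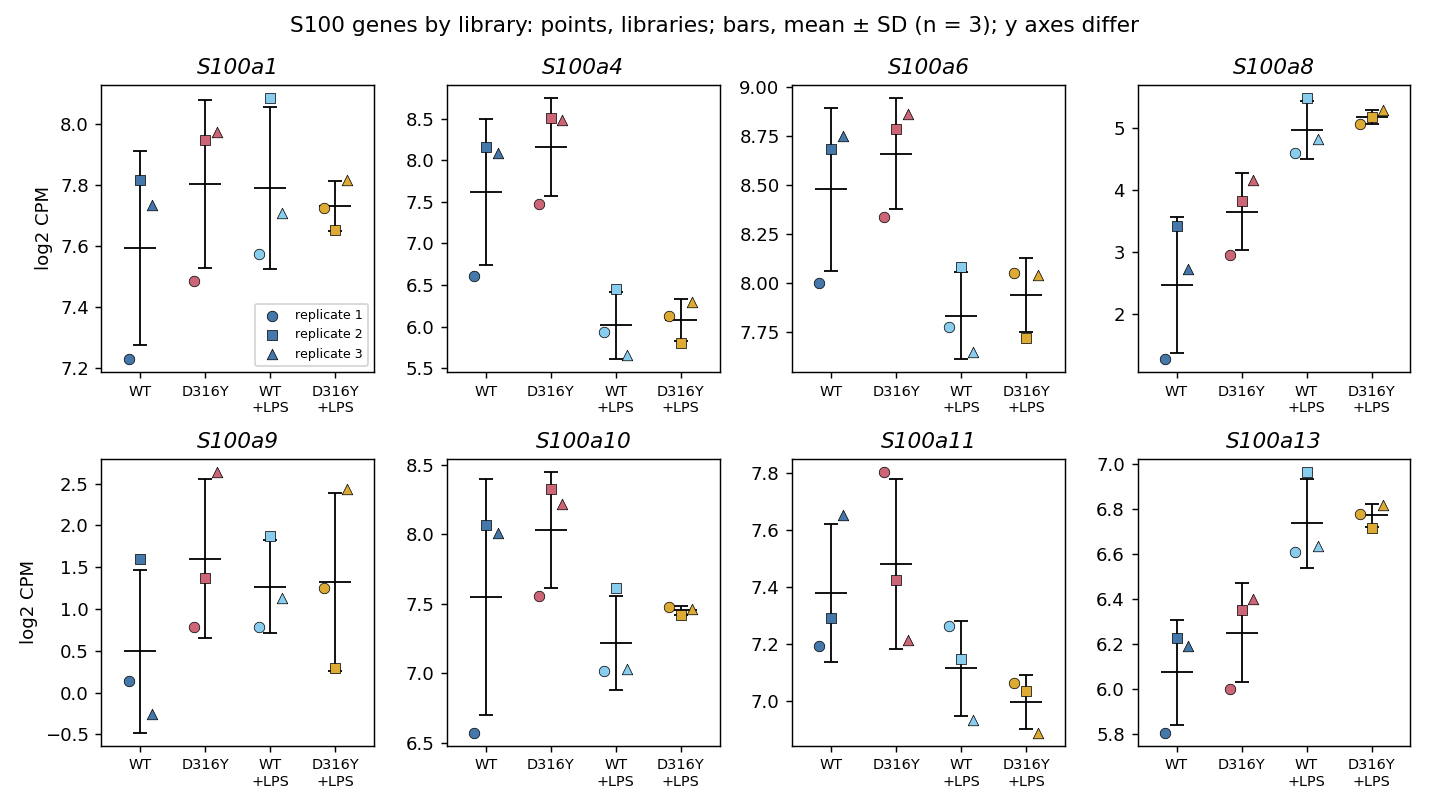
Level of each S100 gene in the 12 libraries (y axis, log2 CPM, a separate scale for each gene); points are libraries, with shapes for replicate numbers, and bars are means ± SD (n = 3). Circles, replicate 1, are the lowest unstimulated point for 7 genes in each genotype, and the LPS groups of S100a4 and S100a8 lie apart from the unstimulated groups.

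The genotype comparison without LPS asked how resting D316Y macrophages differ from WT. None of the 8 S100 genes passed (limma, 0 of 8, and 0 of 8 at an unadjusted p under 0.05, where 2.92% of all genes were), nor did any with limma's voom weights on the recovered reads. Of 11525 genes tested, 0.00868% passed. All 8 estimates were positive, against 46.2% of all genes, and the median log2 difference of the 8 was 0.35 (all genes, -0.02). The WT and D316Y values overlapped for every one of the 8, whereas the groups did not overlap, with D316Y higher, for 2.95% of all genes and, with D316Y lower, for 5.18%.

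S100a8 had the largest estimate, 1.18 (SE 0.53, 95% interval -0.02 to 2.39, p 0.0539, adjusted p 0.942), which is 2.27-fold. Within replicate numbers 1, 2 and 3, D316Y was above WT by 1.69, 0.41 and 1.45. S100a9 followed with 1.10 (SE 0.59, -0.24 to 2.45, adjusted p 0.942), with 0.64, -0.22 and 2.90 within the numbers. S100a4 stood at 0.54 (SE 0.45; 0.87, 0.35 and 0.40 within the numbers) and S100a10 at 0.48 (SE 0.41; 0.98, 0.26 and 0.21). The other 4 lay between 0.10 (S100a11) and 0.21 (S100a1), and of these S100a11 was lower in D316Y within number 3, by 0.44.

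Same-numbered unstimulated libraries deviated together (correlations across genes of 0.671, 0.667 and 0.225), so the comparison was also made with the replicate number as a block. With the block 6 genes of the table passed instead of 1, and 0 of the 8 S100 genes did. S100a8 then had an interval of 0.60 to 1.76 (unadjusted p 0.00195, adjusted p 0.130) and S100a4 one of 0.27 to 0.82 (unadjusted p 0.00180, adjusted p 0.128). S100a10 (unadjusted p 0.0174) and S100a1 (0.0413) were also under 0.05 before adjustment, so 4 of 8 were, against 2119 of 11525 genes. Without both replicate 1 libraries S100a8 stood at 0.93 (adjusted p 0.187), S100a4 at 0.38 (0.145), S100a10 at 0.23 (0.295) and S100a11 at -0.15 (0.616). The mitochondrial and ribosomal protein shares given above were also higher in D316Y than in WT within each replicate number, and their part in these differences was not tested.

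**Figure D4:**
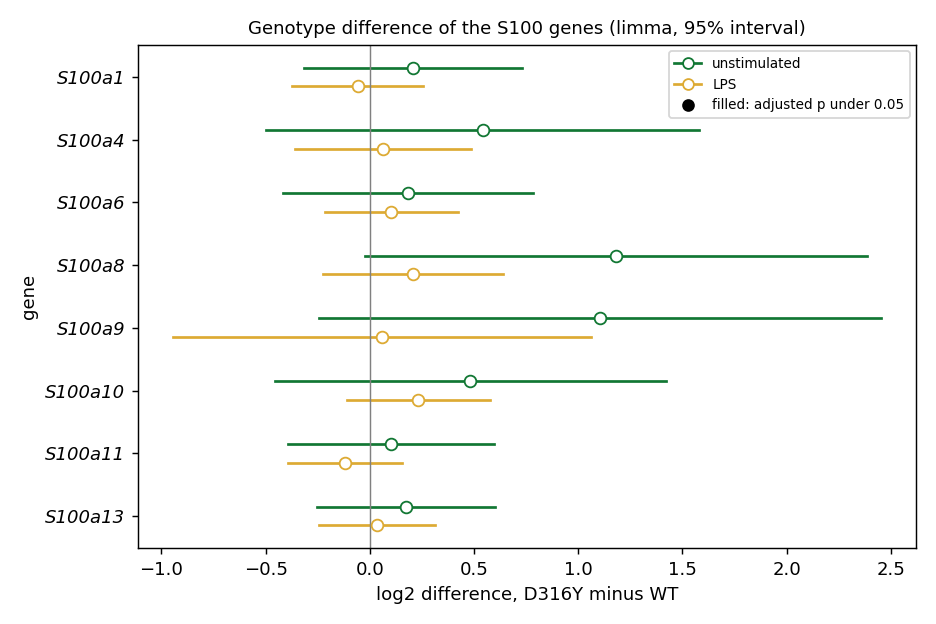
Genotype difference of each S100 gene (x axis, log2 difference, D316Y minus WT) without and with LPS; points are limma estimates without a replicate block, and lines are 95% intervals. Every interval includes 0, and the estimates without LPS are all positive.

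In the authors' deposited table for the comparison without LPS, S100a8 had a log2 fold change of 1.08 (limits 0.518 to 1.64, p 0.000685, adjusted p 0.119). The authors' deposited table gave S100a9 1.6 (0.384 to 2.81, adjusted p 0.214), S100a4 0.39 (adjusted p 0.309) and S100a11 -0.182 (adjusted p 0.517). None of the 8 passed there either. In the authors' deposited table for the LPS comparison the largest was S100a10, with 0.352 (adjusted p 0.35).

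With LPS, the genotypes were close on average. None of the 8 S100 genes passed (limma, 0 of 8, and 0 with voom weights), against 0.0442% of 11306 genes. At an unadjusted p under 0.05 were 0 of 8, against 6.5% of all genes. D316Y was the higher for 6 of the 8, where it was for 49.2% of all genes, and the groups overlapped for all 8, where 5.7% of all genes were apart upward and 6.79% downward. The estimates ran from -0.12 (S100a11) to 0.23 (S100a10), with a median of 0.06 and adjusted p from 0.827 to 0.993. S100a8 stood at 0.21 (SE 0.20, 95% interval -0.22 to 0.64), and its 3 D316Y libraries lay within the range of the WT libraries. S100a4 stood at 0.06 (SE 0.19, -0.36 to 0.48). S100a9 had the widest interval, -0.94 to 1.06. Within replicate number 2, D316Y was below WT for every S100 gene (S100a8 -0.31, S100a4 -0.65, S100a10 -0.19). Within numbers 1 and 3 it was above WT for every S100 gene except S100a11. There S100a8 differed by 0.47 and 0.47, S100a4 by 0.19 and 0.64 and S100a10 by 0.46 and 0.43.

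Whether LPS acted differently in the genotypes was tested as the genotype difference with LPS minus that without it. None of the 8 passed (limma, 0 of 8, and 0 of 8 at an unadjusted p under 0.05, and 0 with voom weights), and 0% of 11918 genes did, with 2.11% at an unadjusted p under 0.05. All 8 estimates were negative, where 51.7% of all genes had positive ones, and they ran from -1.05 for S100a9 (95% interval -2.89 to 0.80) and -0.97 for S100a8 (-2.32 to 0.37) to -0.08 for S100a6. Each adjusted p was 0.999. Without both unstimulated replicate 1 libraries the S100a8 estimate was -0.72 (-1.46 to 0.02), and 0 of the 8 passed. With the replicate number as a block S100a8 had an interval of -1.90 to -0.05 (limma, unadjusted p 0.0406, adjusted p 0.999). In that setting 306 of 11918 genes had an unadjusted p under 0.05, and 0 passed. After adjustment the rise of S100a8 was thus not shown to differ between WT and D316Y. The unstimulated libraries enter both this difference and the comparison without LPS, so the signs of the 2 are not independent.

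Within groups, 6 of the genes moved together from library to library. After each group's mean was taken off, S100a1, S100a4, S100a6, S100a8, S100a10 and S100a13 correlated with each other at Pearson's r of 0.87 to 0.99 over the 12 libraries, among them r of 0.99 for S100a1 and S100a13 and 0.98 for S100a4 and S100a6. S100a9 followed them less (0.41 to 0.63), and S100a11 did not (-0.61 to 0.07 with the other 7). Genes outside the family came closer to S100a8 (Cenpw 0.976, Psma6 0.973, Atf1 0.971) than any member did (at most 0.946, S100a10). Nothing particular to the family is therefore read from these correlations. These values are descriptions, since the genes share libraries, depth and the mitochondrial share, which was lowest of its group in unstimulated replicate 1 of both genotypes. In WT replicate 1 the deviations were -1.20 for S100a8, -1.01 for S100a4 and -0.98 for S100a10, and in D316Y replicate 1 they were -0.69, -0.68 and -0.48. In a bulk sample, fewer cells of a type and less RNA per cell cannot be told apart.

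**Figure D5:**
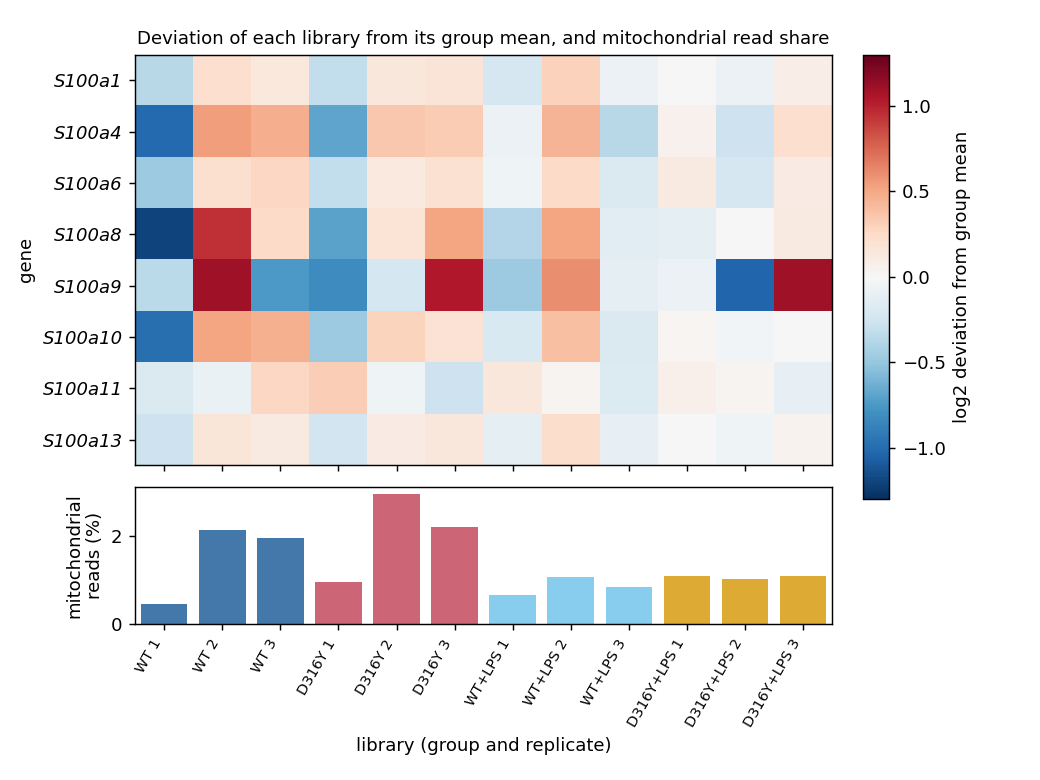
Deviation of each library from the mean of its group for each S100 gene (colour, log2 scale; columns are libraries) above the share of reads from mitochondrially encoded genes (bars, percent). Unstimulated WT replicate 1 is below its group mean for every S100 gene, and D316Y replicate 1 for every one but S100a11, where it is above. The mitochondrial share of these libraries, 0.449% (WT) and 0.949% (D316Y), is the lowest of each group.

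Genes of the table with the most similar profiles over the 12 libraries were named by rule, as descriptions, with the S100 genes themselves set apart. S100a13 was closest to Atp5g3 (r 0.993), Mrps14 (0.993) and Ndufa3 (0.993), and S100a8 to Ndufb2 (0.987), Ufm1 (0.978) and Uqcrb (0.977). Outside the family, S100a4 and S100a6 were both closest to Erich1 (0.989 and 0.981). S100a10 was closest to mt-Atp6 (0.984), mt-Cytb (0.981) and mt-Nd1 (0.981), all encoded by the mitochondrial genome. S100a1 was closest to Mrpl48 (0.978), and S100a11 to Srsf3 (0.934) and Map4k1 (0.919), with Anxa2, which encodes annexin A2, in the next place (0.912). S100a9 had no close match, Mgmt being the nearest with 0.801. Among the members themselves, S100a4 and S100a6 had the highest correlation of levels, 0.984.

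Neutrophil markers, which bear on S100a8 and S100a9, were low and did not move as 1 block. Of 12 listed, 5 were measured (Csf3r, Mmp8, Camp, Ngp and Ltf). Their summed level was between 64.1 and 91.7 CPM in unstimulated WT, between 59.0 and 68.3 in unstimulated D316Y, between 149 and 175 in WT with LPS and between 169 and 198 in D316Y with LPS, most of it from Csf3r, the receptor for granulocyte colony-stimulating factor. The sum overlapped between the unstimulated genotypes, where WT was the higher by median. Its members went both ways there. Csf3r (-0.29) and Mmp8 (-0.13) were lower in D316Y, Ngp (0.42) and Ltf (0.34) were higher, and none passed (limma). Camp, too low to be tested there, had 4, 11 and 4 reads in WT replicates 1, 2 and 3 against 14, 13 and 18 in D316Y. With LPS, Csf3r rose (1.16 in WT and 1.59 in D316Y on the log2 scale) and the antimicrobial peptide gene Camp rose from 4 to 18 reads per library to between 130 and 234. The granule protein gene Ngp fell (-1.26 and -1.79), so Camp and Ngp, both of neutrophil granules, went in opposite directions while S100a8 rose. None of the T and NK cell, mast cell or erythroid markers was measured. The monocyte and progenitor sum was between 76.95 and 81.45 CPM in unstimulated WT and between 87.12 and 95.04 in unstimulated D316Y, most of it from Ccr2. The unstimulated genotypes therefore did not overlap, with D316Y higher. Of the 7 markers tested there, 3 were higher in D316Y and 0 passed (limma). With LPS the monocyte and progenitor sum was between 298 and 451 CPM in WT and between 320 and 370 in D316Y. In each genotype 4 of these markers rose, and 3 fell in WT and 2 in D316Y. Of all genes, 18.1% (WT) and 19.4% (D316Y) rose and 19% fell in each. The part of the neutrophil and monocyte markers in the S100a8 result was not tested.

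Genes of the S100 pathway were counted from lists chosen with earlier results of these data known. Of 7 extracellular receptors and adaptors 6 were measured, and with LPS 4 rose and 1 fell in each genotype (median log2 difference 0.74 in WT and 0.75 in D316Y), where 18.1% of all genes rose and 19% fell in WT and 19.4% and 19% in D316Y. Bsg, a receptor of S100A9, rose (0.99 and 1.06), as did the Toll-like receptor 4 co-receptor Cd14 (1.05 and 1.07) and the signalling adaptor Myd88 (0.82 and 1.07). The scavenger receptor Cd36 fell (-1.402 and -1.49). Tlr4 itself stood at 5.90 to 6.04 log2 CPM on average in the 4 groups and did not pass (-0.14 and 0.04). It was chosen after its values were seen.

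In a list of intracellular partners and related genes, more fell than rose. Of 19 listed, 15 were tested in WT and 16 in D316Y with LPS, and 9 fell in each, while 2 rose in WT and 3 in D316Y (medians -0.74 and -0.74), against 19% of all genes lower in either genotype and 18.1% (WT) and 19.4% (D316Y) higher. Plau, the urokinase that activates plasminogen, fell (log2 difference -5.72 in WT and -5.54 in D316Y), and so did its receptor Plaur (-2.54 and -2.76). Neither is an intracellular partner of an S100 protein, and both are among the 9 that fell. Anxa1, the annexin partner of S100a11, fell too (-2.23 and -2.39). Il1a, whose product is exported with S100A13, was at 25, 4 and 2 reads in unstimulated WT and 0, 20 and 3 in unstimulated D316Y against 1272 to 1774 and 1315 to 2372 with LPS, so no fold is given.

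Set beside the members they bind, the partners moved in the same or other directions. Anxa2, which pairs with S100a10, fell (log2 difference -0.67 in WT and -0.88 in D316Y, adjusted p 0.00833 and 0.00121), where S100a10 passed only without the replicate 1 libraries. Cacybp, which binds S100a6, rose (0.70 and 0.67) while S100a6 fell. Myh9, the heavy chain of the myosin that S100a4 binds, did not pass (-0.06 and -0.27) while S100a4 fell. Anxa2, Cacybp and Myh9 were chosen after their values were seen.

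Of 7 transcription factors known from the S100a8 and S100a9 promoters, 6 were measured. With LPS 4 rose and 1 fell in each genotype (medians 1.63 in WT and 1.46 in D316Y), beside 18.1% and 19.4% of all genes higher and 19% lower in each. Hif1a (2.69 and 2.56), Cebpd (2.52 and 1.87) and Cebpb (2.44 and 1.91) rose, and Cebpa fell (-2.70 and -2.63). Both C/EBP genes that rose and the 1 that fell belong to the family whose motif letters (TTNNGNAA) were matched in the S100a8 and S100a9 windows. Of all promoter windows, 40.7% held such a match. Binding was not measured.

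Of 25 other EF-hand calcium-binding proteins 24 were measured, and with LPS 7 rose and 4 fell in each genotype (medians 0.04 and 0.08). Of all genes, 37.1% in WT and 38.4% in D316Y passed in either direction. The largest were the granule-associated Gca (1.78 and 2.28) and the actin-bundling Aif1 (1.34 and 1.54), which rose, and the actin crosslinker Actn1 (-1.95 and -2.08) and the protease Capn2 (-1.50 and -1.57), which fell. Of 9 genes listed as other S100 family genes, the 1 measured was S100pbp, which passed in no comparison. It encodes a binding protein of an S100 protein and is not itself an S100 gene. In the genotype comparisons and the interaction, 0 genes of these 5 lists passed (limma). At an unadjusted p under 0.05 between genotypes with LPS were Il1a (0.51), Cebpd (-0.53), Spi1 (-0.30), Capns1 (-0.38) and Stim1 (-0.30), with adjusted p from 0.545 to 0.734. In that comparison 15 partners, 5 transcription factors, 23 EF-hand genes, 6 receptors and adaptors and S100pbp were tested. Of all genes, 6.5% were under 0.05 there, so nothing particular to the lists is read from these names. There were 0 such genes without LPS (2.92% of all genes) and 0 in the interaction (2.11%).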

How the data were processed

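RNA was sequenced from 12 libraries of bone marrow-derived macrophages in 4 groups of 3, assigned from the sample labels. The submitters' processing notes name limma, edgeR, featureCounts 1.4.6-p5, Subread, STAR 2.5.1a and bcl2fastq, with no role or order; genome build, annotation and any use of strand: not given in the sources used here. The authors deposited 2 tables with identical log2 CPM values (largest difference 0). Per the file headers, each also holds the deposited log2 fold change, limits, p-value and adjusted p-value of a genotype comparison. The 12493 entries hold 52 repeated identifiers, which leaves 12441 genes, and all were found in GENCODE M21. Symbols of 15 genes that had become dates were restored. Reads were recovered from the form log2 of reads plus 0.5 over a library size: among values below 200 reads, 100% came out whole to within 0.01 read. That library size was above the recovered reads in every unstimulated library and below them in every LPS library. Levels between genes were compared per kilobase of exon union.

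Since the values are on a log2 scale, each comparison used limma 3.58.1 (R 4.3.3, data.table version 1.17.8) with eBayes moderation, trend and robust, on genes whose mean reached 0 log2 CPM in 1 or more of the groups compared. All 8 S100 genes were tested in every comparison. All tests were two-sided, p-values were adjusted by Benjamini-Hochberg over every gene tested, and "passed" means an adjusted p under 0.05. Each genotype comparison used only the 6 libraries of its condition; the LPS responses and the interaction came from 1 fit of 4 groups. The fit was tested on simulated data. Python 3.11.15, pandas 2.3.3, scipy 1.17.1 and numpy 2.4.6 made the summaries.

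The rule for names takes all 8 members, up to 4 genes per list and comparison with the smallest adjusted p (up to 2 by unadjusted p where none passed), and per member the 3 genes with the highest Pearson correlation over the 12 libraries among the 9126 genes with a mean of at least 1 log2 CPM, other members set apart. Of these a selection is printed. The members and lists were chosen with earlier results of these data known. Alternatives were median centring, eBayes without trend and robust, voom weights on the recovered reads, no filter and a filter at 1 log2 CPM, the replicate number as a block, each library left out in turn, and both unstimulated replicate 1 libraries left out. Same-numbered libraries deviated together in the unstimulated comparison (0.671, 0.667 and 0.225). In each of the others at least 1 of the 3 correlations was under 0.1. Between WT without and with LPS they were 0.467, 0.275 and -0.121 for replicates 1, 2 and 3, so pairing there was partial.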

Additional observations from a re-analysis of the deposited data

How the results depend on the processing

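S100a4 in both genotypes and S100a8 and S100a13 in WT passed with LPS in all 13 alternatives run for each, and none of the 8 genes passed in either genotype comparison or the interaction in any alternative run. No alternative scaled the values by the recovered read totals. Over all S100 genes and comparisons, 515 recomputed values kept direction and side of the threshold, 19 lost the call, 3 gained it and 23 changed sign, all 23 of them in results that had not passed. In D316Y with LPS the number of S100 genes that passed was 2 to 4 with 1 library left out, against 5. Genes of the table that passed between genotypes without LPS were 6 with the replicate block, 10 without both replicate 1 libraries, 0 with no filter, 0 with plain eBayes and 0 to 1 with 1 library left out. With LPS they were 1 with plain eBayes and 2 to 22 with 1 library left out (22 without WT replicate 2). With 1 library left out, the differences that changed sign in the comparison without LPS ran from -0.056 to 0.35 for S100a6, from -0.0041 to 0.74 for S100a10 and from -0.059 to 0.24 for S100a11. With LPS they ran from -0.17 to 0.090 for S100a1, from -0.12 to 0.28 for S100a4, from -0.49 to 0.57 for S100a9 and from -0.029 to 0.15 for S100a13. For the LPS response in D316Y they ran from -0.23 to 0.014 for S100a1 and from -0.82 to 0.25 for S100a9. For the interaction they ran from -0.82 to 0.026 for S100a4, from -0.24 to 0.16 for S100a6 and from -0.51 to 0.24 for S100a10. Without both unstimulated replicate 1 libraries S100a11 changed sign to -0.15 in the comparison without LPS and to 0.032 in the interaction. The cause was not tested. The replicate block changed no call of the 8 genes. S100a9 had the fewest reads of the 8 genes, 34 to 304 per library, and SDs of 0.55 to 1.07 on the log2 scale within groups.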

Other observations

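Most genes next to the S100 stretches did not pass with LPS. Within 500 kb of the 2 stretches lie 18 other genes of the table, of which 16 were tested. Dennd4b fell in each genotype (log2 difference -0.46 and -0.46, limma adjusted p 0.0357 in WT and 0.0359 in D316Y). Crtc2 (0.41, adjusted p 0.0343) and Jtb (0.58, adjusted p 0.0268) rose in D316Y cells. These were the neighbours that passed: 1 of 16 in WT, where 37.1% of all genes did, and 3 of 16 in D316Y, where 38.4% did. In the genotype comparisons and the interaction 0 of 16 passed (limma).

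With group means taken off, the 3 genes whose library-to-library deviations were most like those of S100a8 were Cenpw (r 0.976), Psma6 (0.973) and Atf1 (0.971), over 12 libraries. For S100a9 they were Ylpm1 (0.924), Alkbh7 (0.875) and Txndc11 (0.870). The chains of calprotectin had no gene of these 2 sets in common. These are descriptions of the same 12 libraries.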
